A study of Mus musculus with 3 samples.

Results

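Serine proteases of the trypsin fold are a large gene family of the mouse testis, and 9 of them are described here: Prss21, Prss37, Prss46, Prss50, Prss51, Prss54, Prss55, Prss58 and Tmprss12. They were taken by gene symbol from the 32285 genes of the deposited tables, and all 9 were found. The question was which stage of sperm formation each of them marks, and whether its level there differed in testes with a conditional knockout of Tex10. The Tex10 protein is found in the nucleus and takes part in making ribosomes.

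Single-cell RNA libraries had been prepared from adult mouse testis, digested with collagenase. Wildtype replicate 1 and wildtype replicate 2 came from 1 wildtype mouse each, and the knockout library pooled the cells of 2 mice with the genotype conditional Tex10 knockout. All 3 libraries carry the strain label C57BL/6N. Which Cre line was used is not stated in the labels, and the age is given only as adult. With 1 pooled knockout library no spread between knockout animals could be measured. Levels are unique molecular identifiers (UMIs, the count of captured RNA molecules) per 1000000 UMIs of a group of cells, written CPM. The kit copies the 3′ end of each RNA, so a molecule counts once whatever its length.

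Germ cells pass from spermatogonia through meiosis as spermatocytes, and then turn from round into elongating spermatids, which pack their DNA with protamines. In trypsin-like enzymes a histidine, an aspartate and a serine form the active site, and several family members of the testis carry other residues there. Mouse mutants have tied Prss37, Prss55 and Tmprss12 to the passage of sperm into the oviduct and to the sperm surface protein ADAM3. Prss21, known as testisin, is held on the sperm membrane by a lipid anchor.

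The codons of the active-site serine are shown first because the 9 genes differ in their best match to the textbook serine motif. In the longest coding sequence of each gene in GENCODE release M21, the in-frame window with most of the 6 codons for glycine, aspartate, serine, glycine, glycine and proline was taken. Prss21, Prss55 and Tmprss12 held all 6 codons, and Prss51 held 5 of them. The best windows of Prss37, Prss50 and Prss54 held 3, and those of Prss46 and Prss58 held 2. These scores were tied over 5 windows in Prss50, 2 in Prss54, 18 in Prss46 and 5 in Prss58. Such windows need not lie at the active site, so they are not read as a part of the motif. The codons for alanine, alanine, histidine and cysteine, which surround the active-site histidine in many trypsin-like enzymes, gave another division. They were found in Prss21, Prss46, Prss51, Prss58 and Tmprss12, and not in Prss37, Prss50, Prss54 or Prss55. The search needed exactly these neighbours of the histidine, so a missing match does not show that the active-site histidine is absent. The capitals mark the serine codon of the motif, which is codon 248 of Prss21, 223 of Prss51, 216 of Prss55 and 256 of Tmprss12.
Prss21: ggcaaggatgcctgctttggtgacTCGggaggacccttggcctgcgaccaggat
Prss51: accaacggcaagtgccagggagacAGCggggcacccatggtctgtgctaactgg
Prss55: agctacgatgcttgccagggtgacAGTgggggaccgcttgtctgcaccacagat
Tmprss12: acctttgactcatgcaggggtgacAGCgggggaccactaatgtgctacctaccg
The genes with the serine motif were not restricted to 1 phase of sperm formation. As the levels below show, Tmprss12 was highest in spermatocytes and Prss55 in spermatids.

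Germ cells were clustered without using the 9 genes, and 14 clusters fell on a path that is numbered here from stage 1 to stage 14. Stage 1 was spermatogonia. Stages 2 to 4 were early spermatocytes, stages 6 to 8 late spermatocytes, stages 9 and 10 round spermatids and stages 11 to 14 elongating spermatids, each by fixed marker genes. Stage 5 had Piwil1, Adad2 and Tdrd1 among its leading genes and did not meet the naming rule, so it stayed unnamed. Stage 8 kept its name by the markers, although its leading genes included Ssxb1, Ssxb2 and Ssxb3. The spermatid gene Acrv1 also reached 352 and 394 CPM there in the wildtype libraries and 384 CPM in the knockout. Spaca1, another round spermatid marker, was at 641 and 627 CPM in the wildtype libraries and 659 CPM in the knockout. Both were higher still in stage 9. Ccna1 and Aurka were lower in stage 8 than in stage 7 in every library. The name of stage 8 as late spermatocytes is therefore uncertain. The order of the 14 stages was set by the likeness of cluster profiles and not by the 9 genes. Cells were also cut along the path into 20 bins of about equal cell number. Known landmarks were highest in the same bin in all 3 libraries: Stra8 in bin 2, Sycp3 in bin 4, Piwil1 in bin 5, Ccna1 in bin 8, Acrv1 in bin 11, Tnp2 in bin 15 and Prm2 in bin 20.

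The libraries held 9967, 10153 and 12918 barcodes with 93418341, 96001773 and 147783171 UMIs, in the order wildtype replicate 1, wildtype replicate 2, knockout library. After filtering, 7483, 7670 and 11053 were kept, of which 59.2%, 45.1% and 67.6% lay in clusters of few UMIs and were set apart. Pairs of libraries shared 27 to 30 barcodes, under 1% of either. The Tex10 level of the knockout library was 97.8% of the wildtype mean in spermatogonia, 97.2% in early and 84.4% in late spermatocytes, 59.9% in round and 75.3% in elongating spermatids. The spermatid values rest on low levels. In the same order of libraries, Tex10 was at 144, 124 and 131 CPM in spermatogonia. It was at 19.7, 21.5 and 12.3 CPM in round and at 3.42, 2.85 and 2.36 CPM in elongating spermatids. The deleted part of the gene is not given in the labels, so 3′ counts are a limited check of the knockout. In the text below, 3 values in a row follow the order wildtype replicate 1, wildtype replicate 2, knockout library.

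The 9 genes followed each other along the path, and the order was nearly the same in each library. Prss50 came first, then Tmprss12, Prss21, Prss46, Prss54 and Prss37, and Prss51, Prss55 and Prss58 were last. The highest bin of every gene differed by at most 1 between the 3 libraries. The highest stage was the same in all 3 libraries for 7 of the 9 genes. The exceptions were Tmprss12, which in wildtype replicate 2 was as high in stage 4 as in stage 5, and Prss51, which in the knockout library was at 270 CPM in stage 10 and 266 CPM in stage 11. By class, from the wildtype mean, Prss50 and Tmprss12 were highest in early spermatocytes and Prss21 and Prss46 in late spermatocytes. By the same mean, Prss54 and Prss37 were highest in round spermatids and Prss51, Prss55 and Prss58 in elongating spermatids. Stage 5, where the wildtype mean of Tmprss12 was highest, was unnamed and counted in no class. The Tmprss12 level in early spermatocytes was only 1.15, 1.44 and 1.04 times that in late spermatocytes. The class of Prss46 rests on its highest stage, stage 8, whose name is uncertain. Under a stricter cell filter the class of Prss46 became round spermatids. The order of the genes did not hold along diffusion pseudotime, which itself placed elongating spermatids before late spermatocytes. Prss37 in wildtype replicate 2 and Prss51 and Prss55 in the knockout library were higher in the other spermatid class. With equal weight for each cluster of a class, Prss51 and Prss55 were higher in round spermatids in every library. Prss51 was then at 108, 100 and 139 CPM in round and 90.4, 87.8 and 90.9 CPM in elongating spermatids. Prss55 was at 303, 288 and 301 CPM against 230, 228 and 224 CPM. Tmprss12 was then at 25.2, 29.8 and 26.6 CPM in early and 27.5, 28.6 and 28.1 CPM in late spermatocytes.

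**Figure D1:**
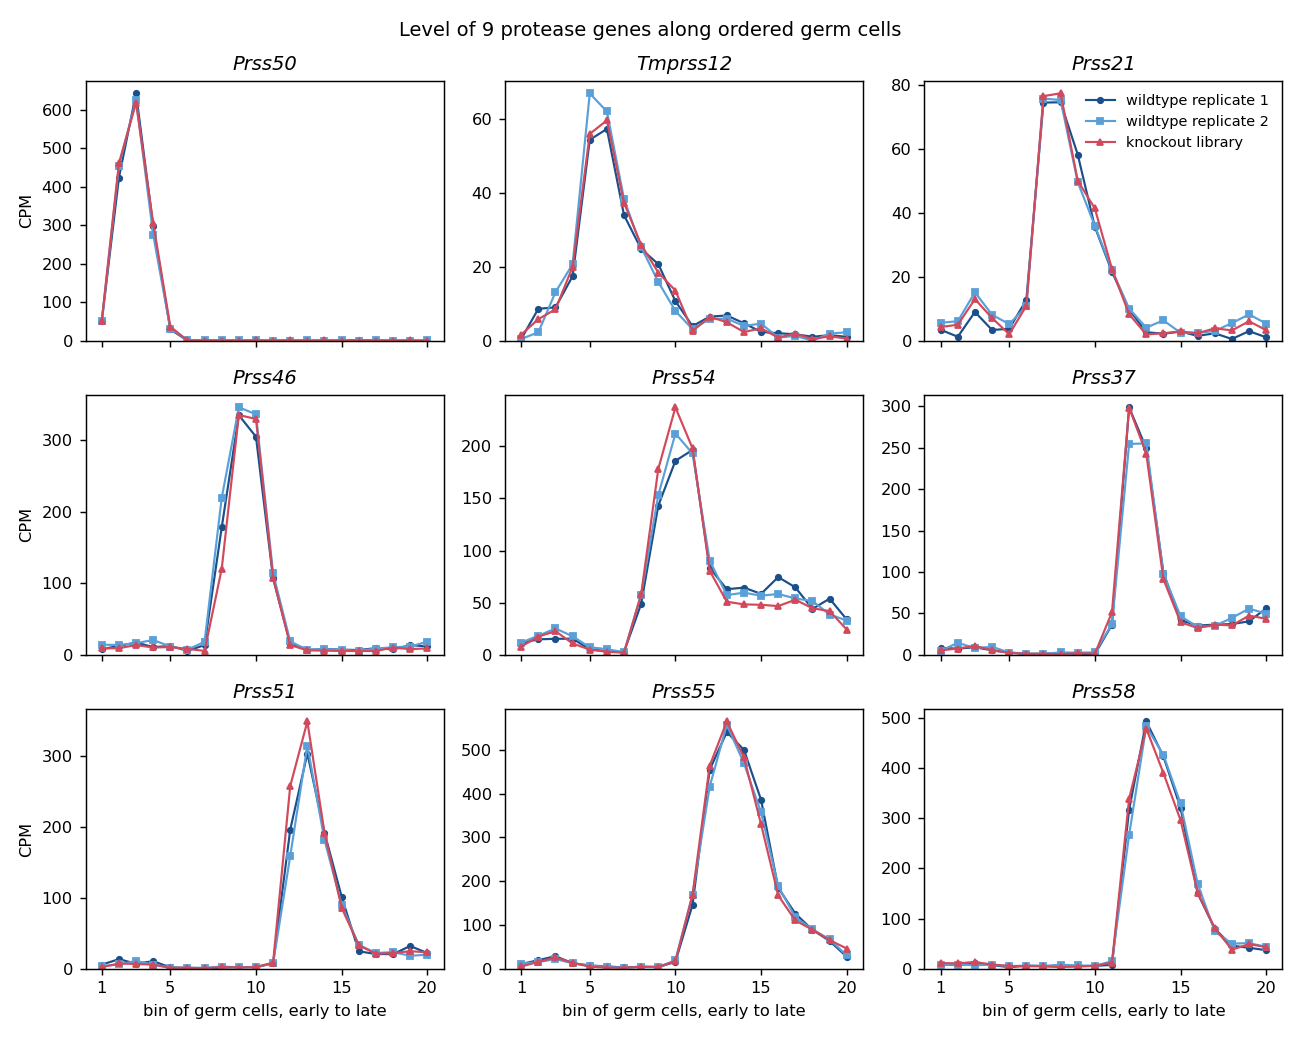
CPM of each gene (vertical axis, linear from 0, scaled per panel) in 20 bins of germ cells ordered from early to late (horizontal axis), with a line and symbol for each library. Each gene has 1 main peak, and the 3 libraries lie close together, with Prss46 in bin 8 lower in the knockout library (178, 219 and 120 CPM).

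**Figure D2:**
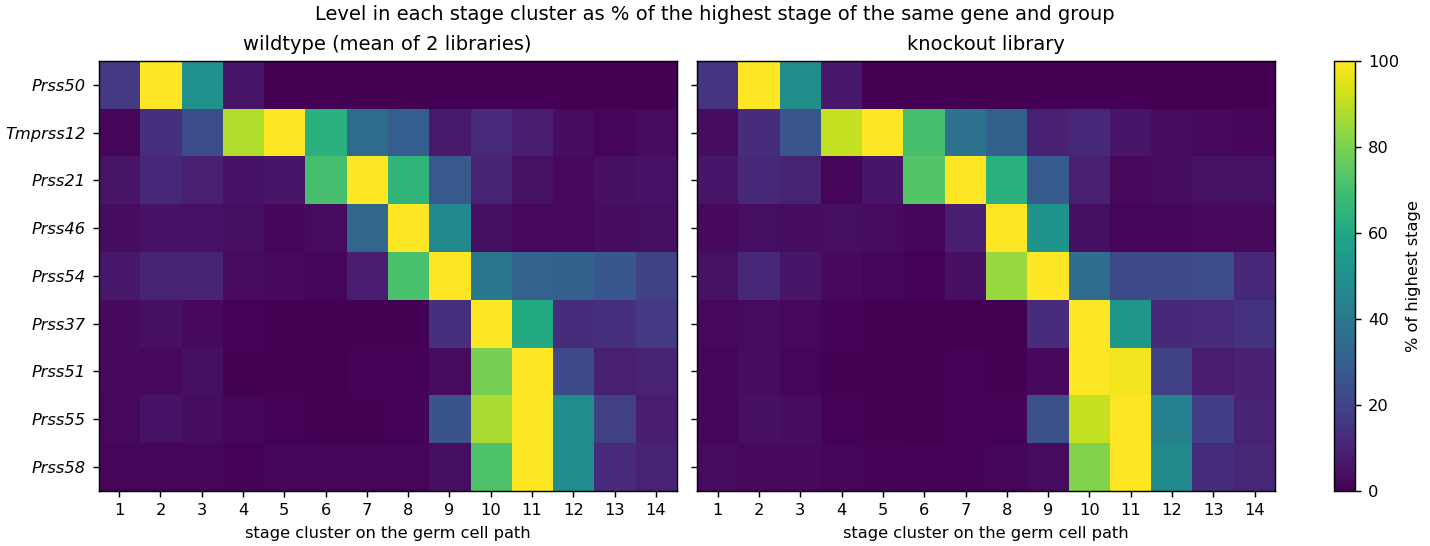
Level in each of the 14 stage clusters (horizontal axis) as a percent of the gene's highest stage, for the mean of the 2 wildtype libraries and for the knockout library. Bright cells run from stage 2 for Prss50 to stage 11 for Prss55 and Prss58 in both panels.

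Prss50, also known as testis-specific protease 50, marked the entry into meiosis. It lies on chromosome 9 at 110857967 to 110864629 on the forward strand of GRCm38. In stage 2, which was led by Stra8 and Prdm9, its level was 694, 670 and 697 CPM, with a 95% counting interval of 655 to 741 in the knockout library. In stage 3 it was 346, 347 and 348 CPM and in stage 1 it was 101, 126 and 106 CPM. The knockout value lay between the wildtype values in stage 1 and less than 1% above the higher of them in stages 2 and 3. From stage 5 on its level was at most 1.35 CPM in any library. The wildtype level in stage 2 was 682 ± 16.9 CPM (SD, n = 2). Its like genes over the 20 bins, by Pearson r of the wildtype mean of log2(CPM + 1) among 10898 genes, were Mcoln1 (r = 0.99), which encodes a lysosomal channel, and Btbd18 (r = 0.99), a nuclear factor of piRNA production. Such correlations share cells, bins and libraries and are a description.

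The promoter of Prss50 is shown because its highest stage is the one led by Stra8, which encodes a factor of meiotic entry. RefSeq gives 2 start sites for the gene, and the 300 bases around the upstream one, 250 before and 50 after the start, lie at chr9:110857714-110858013 on the forward strand of GRCm38.p6. The capitals mark a match to CNCCTCAG, a motif known for STRA8, which stands here on the reverse strand, 164 bases before the start site.
Prss50: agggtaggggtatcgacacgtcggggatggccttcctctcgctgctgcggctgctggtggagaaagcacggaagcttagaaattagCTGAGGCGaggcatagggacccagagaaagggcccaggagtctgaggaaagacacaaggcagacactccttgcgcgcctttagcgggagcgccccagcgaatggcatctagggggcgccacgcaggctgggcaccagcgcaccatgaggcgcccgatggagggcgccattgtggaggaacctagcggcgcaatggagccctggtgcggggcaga
Among the 7 of 9 genes with an entry in the promoter table, Prss50 and Prss46 had such a match on either strand, against 7.94% of 32851 promoters of the same length. The full cyclic AMP response element TGACGTCA was in none of the 7 and in 1.79% of all. Of the words known for MYB factors, searched on both strands, TAACGG was in 2.76% of all promoters, TAACTG in 10.1%, CAACGG in 5.12% and CAACTG in 13.7%. At least 1 of them was in 28.3% of all and in 1 of the 7, Prss37. A match is a description of letters and no evidence of binding.

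Tmprss12 marked mid-meiotic cells. It encodes a membrane-spanning protease and lies on chromosome 15 at 100280837 to 100293066 on the forward strand. Its level was 65.1, 65.5 and 60.9 CPM in stage 5, the stage with Piwil1 among its leading genes. In stage 4 it was 49.9, 65.5 and 55.4 CPM. Stages 4 and 5 overlapped in their library values, and so their order was not resolved. In stage 6 the level was 40.0, 43.1 and 43.1 CPM, and in stage 9 it was 4.88, 4.72 and 5.66 CPM. The genes most like it were Ubr1 and Rfx2, both with r = 0.95. Rfx2 encodes a transcription factor needed in spermatids and Ubr1 a ubiquitin ligase. Tmprss12 had the lowest peak of the 9 genes, at 65.3 ± 0.223 CPM (SD, n = 2).

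Prss21 marked late meiosis. The gene is on chromosome 17 at 23868056 to 23873114 on the forward strand. It was highest in stage 7, which had Ccna1 and Aurka among its leading genes, with 88.7, 81.5 and 86.5 CPM. The stages on either side were lower in every library, with 57.0, 62.8 and 63.2 CPM in stage 6 and 58.5, 53.0 and 55.2 CPM in stage 8. Stages 6 and 8 overlapped each other. In stage 5 the level was 4.37, 5.69 and 4.87 CPM, far below stage 6 in each library. Gm15908 and Ccdc178, which encodes a coiled-coil protein, were most like it, each with r = 0.98.

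Prss46 peaked 1 stage after Prss21. It lies on chromosome 9 at 110844506 to 110856522 on the forward strand, 1444 bases before the start of Prss50. Stage 8 held its highest level, 314, 342 and 321 CPM. The wildtype mean there was 328 ± 19.3 CPM (SD, n = 2), and the knockout value lay between the wildtype libraries. In stage 9 the level was 135, 172 and 166 CPM and in stage 10 it was 11.4, 13.1 and 12.9 CPM. The genes most like Prss46 were 8030451A03Rik and Gm5458, both with r = 0.98. The pair Prss21 and Prss46 had r = 0.79 over the bins.

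Prss46 and Prss50 are adjacent and point the same way, yet their highest stages lie 6 steps apart. The promoter of Prss46 is shown for that contrast, at chr9:110844256-110844555 on the forward strand of GRCm38.p6. The capitals mark its CNCCTCAG match, on the reverse strand and 14 bases after the start site.
Prss46: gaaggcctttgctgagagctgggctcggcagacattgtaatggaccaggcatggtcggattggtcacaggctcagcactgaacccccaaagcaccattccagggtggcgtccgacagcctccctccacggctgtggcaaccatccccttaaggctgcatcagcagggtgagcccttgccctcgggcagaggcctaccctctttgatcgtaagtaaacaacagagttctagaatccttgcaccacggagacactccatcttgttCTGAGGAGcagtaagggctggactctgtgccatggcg
The 2 matches differ in 1 letter, CTGAGGCG before the start of Prss50 and CTGAGGAG after the start of Prss46. Prss46 was at most at 16.5 CPM in stage 2 of any library. Whether STRA8 acts on either gene was not tested. The level of Prss46 in pooled somatic cells, which should not express it, was 13.1 and 19.8 CPM in the wildtype libraries.

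Prss54 marked the earlier round spermatids. The gene, annotated as an inactive family member, lies on chromosome 8 at 95559069 to 95576340 on the reverse strand. In stage 9 its level was 190, 198 and 215 CPM. In stage 8 it was 133, 144 and 182 CPM, and the stages did not overlap. The knockout value in stage 9 was above both wildtype libraries, at 111% of their mean. Prss54 then kept a low level through elongation, with 53.2, 52.9 and 50.8 CPM in stage 13. It was most like 2900092C05Rik and Cib4, each with r = 0.98, and Cib4 encodes a calcium-binding protein of sperm.

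Prss37 marked the later round spermatids. It lies on chromosome 6 at 40514824 to 40519508 on the reverse strand, and its protein is known as a family member without protease activity. Stage 10 held 312, 286 and 307 CPM, and stage 11 held 184, 180 and 162 CPM. In stage 9 the level was 44.4, 35.7 and 39.1 CPM. The 3 stages did not overlap, and the libraries overlapped within stages 9 and 10. In stage 11 the knockout value was the lowest of the 3. Wbp2nl, which encodes a sperm head protein linked to egg activation, was the gene most like Prss37 (r = 0.98), followed by 4930570E03Rik (r = 0.98).

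The promoter of Prss37 is shown because it was the only 1 of the 7 with MYB words, and it held the same word in 2 places. It lies at chr6:40519459-40519758 on the reverse strand of GRCm38.p6 and is printed in the direction of transcription. The capitals mark TAACTG at 160 and 143 bases before the start site.
Prss37: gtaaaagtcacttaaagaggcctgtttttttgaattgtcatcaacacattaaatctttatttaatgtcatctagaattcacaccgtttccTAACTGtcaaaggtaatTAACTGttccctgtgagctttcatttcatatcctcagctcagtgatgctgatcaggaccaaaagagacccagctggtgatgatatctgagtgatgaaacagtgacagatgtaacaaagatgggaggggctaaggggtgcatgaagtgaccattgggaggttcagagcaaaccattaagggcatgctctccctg
With 28.3% of all promoters holding at least 1 of these words, a match in 1 of 7 genes is near the background.

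Prss51, Prss55 and Prss58 marked the last round and the first elongating spermatids. Prss55, which encodes a protease anchored to the sperm surface, lies on chromosome 14 at 64075438 to 64090162 on the reverse strand. Its level in stage 11 was 524, 521 and 519 CPM, and in stage 10 it was 471, 442 and 473 CPM. The knockout value in stage 11 was just below both wildtype values, whose mean was 523 ± 1.85 CPM (SD, n = 2). Prss55 was also the highest of the 9 genes in stages 10 to 13 in every library. Its like genes were Gask1b and Slfnl1, both with r = 0.99.

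Prss51 lies at 64086234 to 64097678 of the same chromosome on the forward strand, and overlaps Prss55 by 3929 bases. No exonic base is shared between them in the annotation. It was at 254, 251 and 266 CPM in stage 11 and at 209, 192 and 270 CPM in stage 10. The knockout library was above both wildtype libraries in stages 10 and 11, and its counting interval in stage 10 was 260 to 281 CPM. Whether counting used the strand is not stated in the sources used here, so intronic reads of the overlap could not be told apart between the pair. Its like genes, 1700016C15Rik and 1700015O11Rik, both had r = 0.97.

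Prss58, a trypsin-like gene on chromosome 6 at 40895270 to 40900387 on the reverse strand, reached 459, 455 and 434 CPM in stage 11. In stage 10 it held 345, 315 and 352 CPM and in stage 12 it held 217, 230 and 206 CPM. The 3 stages did not overlap. The knockout value was the lowest of the 3 libraries in stage 11 and the highest in stage 10. The 2 genes most like it were 4921517D22Rik (r = 0.99) and 1700018A23Rik (r = 0.98). Among Prss37, Prss51, Prss55 and Prss58, all 6 pairs had r between 0.89 and 0.96 over the wildtype bins and between 0.90 and 0.97 over the knockout bins. These are the 4 latest genes, and they lie on 2 chromosomes.

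The 3′ ends of the 9 genes were distinct. None of the words of 31 bases in the last 500 bases of their transcripts occurred in another gene, except 0.923% of those of Prss55.

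The knockout was compared with each wildtype library by a fixed size rule. To pass, a gene needed log2 ratios of 1 or more in size to both wildtype libraries, computed after adding 1 CPM, with the same sign, with the smaller ratio at least 2 times that between the wildtype libraries, and with 20 CPM in at least 1 library. No p-value is given, since 1 knockout library has no spread. None of the 9 genes passed in any of the 5 germ cell classes. Of the 45 pairs of gene and class, 19 reached 20 CPM and could be judged. The share of all judged genes that passed was 0.421% for spermatogonia, 0.248% for early and 0.863% for late spermatocytes, 1.29% for round and 1.42% for elongating spermatids. In peritubular myoid cells, the only somatic class with enough cells, it was 2.37%, and the 1 of the 9 genes judged there did not pass. So 0 of 19 is close to what the whole table gives. The median log2 ratio of the judged genes was 0.04 in late spermatocytes (4 genes) and -0.10 in elongating spermatids (5 genes), beside 0.01 in both over all genes judged. In round spermatids it was 0.39 (7 genes), beside -0.09 over all genes judged.

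In their own highest stage the genes held nearly the same level in the knockout. The ratio of the knockout value to the wildtype mean was 102% for Prss50, 93.2% for Tmprss12, 102% for Prss21 and 97.9% for Prss46. It was 111% for Prss54, 103% for Prss37, 105% for Prss51, 99.3% for Prss55 and a log2 ratio of -0.08 and -0.07 to the wildtype libraries for Prss58. The knockout value was above both wildtype libraries for 3 of the 9 genes, below both for 3, and between them for 3. The farthest log2 ratio against a single wildtype library was 0.18, for Prss54.

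**Figure D3:**
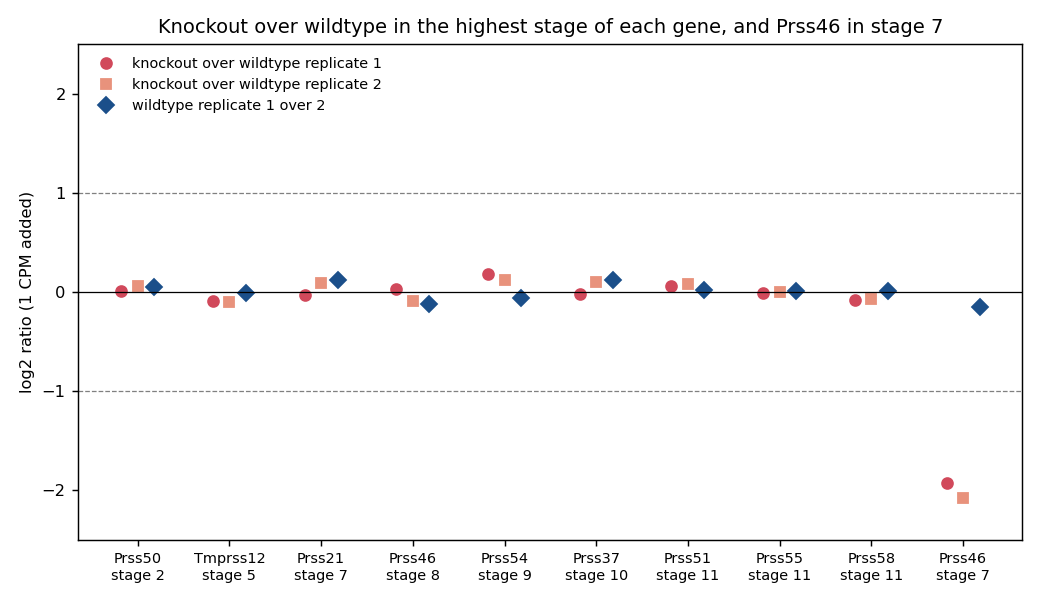
Log2 ratios (vertical axis, 1 CPM added) of the knockout library over each wildtype library and of wildtype replicate 1 over 2, for each gene in its highest stage and for Prss46 in stage 7; dashed lines mark a ratio of 1 and -1. The highest stages all lie within 0.18 of 0, and Prss46 in stage 7 lies at -1.92 and -2.08.

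Within the 14 stages, 1 of the 49 pairs of gene and stage that could be judged passed the rule. Prss46 was lower in stage 7 of the knockout library, where it was at 103 and 115 CPM in the wildtype libraries and at 26.4 CPM in the knockout library. The counting intervals were 93.9 to 113, 103 to 127 and 21.9 to 31.5 CPM. The log2 ratios were -1.92 and -2.08, and a UMI of Prss46 was found in 85.2%, 82.8% and 45.4% of the 135, 122 and 97 cells of that stage. Over all genes 1.44% passed in stage 7. From stage 1 to stage 6 the share was 0.421%, 0.534%, 0.299%, 0.27%, 0.385% and 0.824%. From stage 8 to stage 14 it was 1.12%, 1.2%, 1.18%, 1.45%, 1.44%, 1.65% and 1.82%. With shares of 0.27% to 1.82% over all genes, 1 pass among 49 pairs is close to what the whole table gives. The comparison within stages was added after the data were seen.

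Stage 7 is a steep point of the Prss46 curve, since wildtype cells went from 8.70 and 11.5 CPM in stage 6 to 314 and 342 CPM in stage 8. Acrv1, an acrosome gene, was at 41.6, 43.7 and 22.1 CPM in stage 7, and Spaca1, a further acrosome gene, at 101, 86.4 and 49.5 CPM. The knockout value of both was the lowest of the 3, and neither passed the rule. Of the 55 genes that passed as lower in stage 7, 25 (45.5%) were more than 2 times higher in wildtype stage 8 than in stage 7, against 487 (9.01%) of the 5404 genes judged. Most of those 487 genes did not pass as lower. Prss21 in the same cells was at 88.7, 81.5 and 86.5 CPM. In the bins, which cut the path by cell position, Prss46 in bin 7 was at 13.6, 18.2 and 5.32 CPM, with log2 ratios of -1.20 and -1.60, and stayed under the minimum of 20 CPM. In bin 8 it was at 178, 219 and 120 CPM with log2 ratios of -0.56 and -0.86, and it did not pass. In bin 9 it was at 335, 346 and 335 CPM. The median position of the stage 7 cells on the path was 141878, 141999 and 140641, in units of the summed distance between cluster centres, so it was lowest in the knockout library. The part of cell position in the Prss46 value was not tested.

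In the round spermatid class as a whole, 4 of the genes had higher values in the knockout library without passing. Prss51 was at 77.6, 46.0 and 134 CPM, with log2 ratios of 0.78 and 1.52. Prss58 was at 130, 81.0 and 177 CPM, Prss37 at 138, 87.6 and 168 CPM and Prss55 at 252, 197 and 295 CPM. The wildtype libraries were themselves far apart for all 4. The class is a mixture of stages 9 and 10, and stage 10, where these genes are high, made up 40.7%, 21.3% and 47.6% of its cells. With the 2 stages given equal weight, the log2 ratios of Prss58 were 0.02 and 0.12 and those of Prss37 -0.04 and 0.10. Those of Prss51 were 0.35 and 0.47. Without wildtype replicate 1, Prss51 and Prss58 would pass in round spermatids, with values of 134 and 177 CPM against 46.0 and 81.0 CPM in wildtype replicate 2. The rule is weaker in that case, since its condition on the ratio between the wildtype libraries drops out.

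The share of cells with a UMI was computed per class. After each cell had been thinned to 2000 UMIs, a UMI of Prss50 was found in 45.2%, 45.6% and 49.3% of early spermatocytes and in 0 of 140, 125 and 201 somatic cells. Prss55 was found in 36.0%, 32.3% and 33.3% of elongating spermatids and in 2, 5 and 5 of the same somatic cells. Tmprss12 was found in 4.58%, 3.90% and 3.64% of early spermatocytes, beside 1.43%, 0.80% and 0% of somatic cells, and its 95% binomial intervals of 2.96 to 6.74% and 0.173 to 5.07% in wildtype replicate 1 overlapped. In late spermatocytes its share was higher, at 4.85%, 5.14% and 7.58%, although its wildtype mean CPM was higher in early spermatocytes, so no order of the 2 classes is read from it. Unthinned, Tmprss12 was found in 27.4%, 24.5% and 26.5% of early and in 61.2%, 45.6% and 67.0% of late spermatocytes, and the median depth was 7728, 6232 and 9769 UMIs in the former and 31536, 24198 and 42620 UMIs in the latter. In the knockout library Prss51 and Prss55 were found in 20.9% and 37.2% of round spermatids, above their 14.5% and 33.3% in elongating spermatids. In each library all 9 genes had a higher share in the class of their highest wildtype mean CPM than in the somatic cells. Unthinned, Prss55 was found in 73.8%, 66.4% and 79.8% of elongating spermatids, whose median depth was 11831, 9161 and 17223 UMIs, and in 7.04%, 8.57% and 13.7% of somatic cells, at 6010, 5054 and 8203 UMIs.

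**Figure D4:**
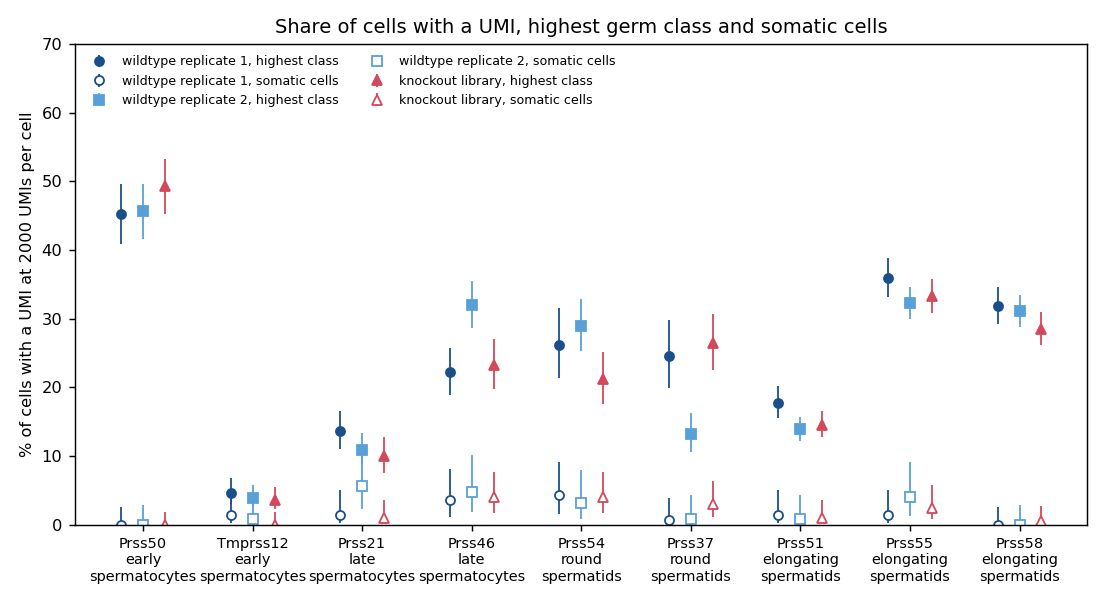
Percent of cells with a UMI at 2000 UMIs per cell (vertical axis) for each gene in the germ cell class of its highest wildtype mean CPM (filled) and in pooled somatic cells (open), by library; bars are exact 95% binomial intervals and cover counting error only. Filled symbols lie above the open ones of the same library for every gene, and Tmprss12 shows the smallest distance.

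Levels in somatic cells were taken as a guide to what free RNA of the suspension can give, which was not itself measured. The somatic pool differed in make-up between libraries, with 9, 0 and 43 Sertoli cells. The 9 genes were at 0 to 19.8 CPM in the pooled somatic cells of each library, while Prm1, a protamine gene of elongating spermatids, was at 2642, 2518 and 2799 CPM in the same cells. The levels of Prss46 in stages 1 to 3, from 8.45 to 21.4 CPM, were close to that range.

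Barcodes of few UMIs were kept out of the stages, and some of them held higher levels than any stage. In a cluster of 107, 68 and 236 barcodes with a median of 1642 UMIs, led by Gm30302, Calr3 and Prss52, Prss58 was at 2171, 2053 and 2178 CPM. Prss37 was there at 1219, 1130 and 1133 CPM and Prss55 at 664, 629 and 682 CPM. The knockout value lay between the wildtype values for Prss37 and just above both for Prss58 and Prss55. They were well above the levels of Prss58 and Prss37 in any stage, and the values of Prss51, at 198, 138 and 200 CPM, were not. In another such cluster of 582, 414 and 377 barcodes, Prss46 was at 498, 510 and 523 CPM. What these barcodes hold was not tested.

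The genes around Prss46 and Prss50 form an array on chromosome 9, in the order Prss42, Prss44, Prss43, Prss45, Prss46 and Prss50, all on the forward strand. Prss45 was the exception in the knockout. It was highest in stage 6, at 75.9, 75.8 and 237 CPM, and it passed as higher in early and late spermatocytes and in round and elongating spermatids. In the 10 stages in which it could be judged it passed as higher in all 10, with log2 ratios between 1.28 and 1.89. Prss43, which ends 2748 bases before Prss45, was at 97.2, 94.5 and 114 CPM in its highest stage, and Prss46, which begins 3192 bases after it, was as given above. Neither Prss42, Prss44 nor Prss43 passed in any stage. No word of 31 bases in the 3′ end of Prss45 occurs in another gene of the annotation. Since all knockout cells came from 1 pooled library, a difference tied to the Tex10 genotype and one tied to these 2 mice cannot be told apart.

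**Figure D5:**
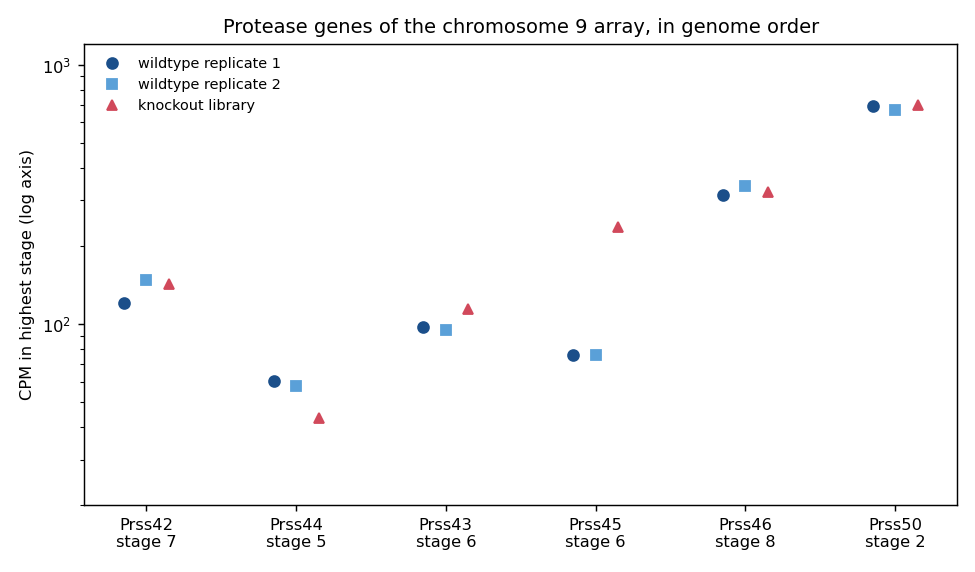
CPM (vertical axis, log scale) of the 6 protease genes of the chromosome 9 array in genome order, each in the stage where its wildtype mean is highest, with a symbol per library. Prss45 is at 75.9 and 75.8 CPM in the wildtype libraries and at 237 CPM in the knockout library, while the knockout value of Prss46 lies between the wildtype values.

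Of the list of other trypsin-fold genes, 21 of 22 were in the tables. In late spermatocytes, where 0.863% of all judged genes passed, 11 of the list could be judged. Prss45 alone of them passed, as higher, with 64.9, 61.4 and 203 CPM. The 3 most abundant by wildtype level were Prss39 in elongating spermatids at 421, 426 and 418 CPM, Prss56 in late spermatocytes at 270, 237 and 268 CPM and Prss52 in round spermatids at 235, 130 and 276 CPM. Prss52, which follows Prss51 on chromosome 14 after 6607 bases, was highest in stage 10 in every library. The median log2 ratio of the 11 genes was 0.07, beside 0.01 over all genes judged in late spermatocytes.

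ADAM3 is a sperm protein that has to be processed in the testis and epididymis, and factors of that route have been grouped with Prss37, Prss55 and Tmprss12. Of the 17 genes of that list, 14 could be judged among late spermatocytes and as many among round spermatids. None passed in any germ cell class, where 0.248% to 1.42% of all judged genes passed, so the count is near that share. Their median log2 ratio lay between -0.18 (elongating spermatids) and -0.04 (early spermatocytes), beside -0.09 to 0.03 over all genes judged. The 3 most abundant of the list were Tex101, at 2165, 2128 and 2094 CPM in early spermatocytes, and Cmtm2b and Cmtm2a, at 2045, 1932 and 2051 CPM and at 1407, 1482 and 1371 CPM in late spermatocytes. Tex101 is also on the marker list of early spermatocytes. Of the 17 protease inhibitors and acrosin partners, 4 to 6 could be judged in each class and none passed, again near the share over all genes. Their median log2 ratio lay between -0.18 (round spermatids) and -0.09 (spermatogonia). Spink2, a protease inhibitor of the acrosome, led this list with 2087, 2128 and 2017 CPM in late spermatocytes. Spaca3 was at 949, 927 and 825 CPM in round spermatids, and Acrbp, which binds proacrosin, at 435, 467 and 461 CPM in late spermatocytes.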

How the data were processed

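Raw UMI counts per gene and barcode were deposited by the authors, and per the file headers Cell Ranger 4.0.0 wrote them. The submitters' processing notes name Cell Ranger 4.0.0, Seurat 4.0.5 and the build mm10. The annotation and the use of strand are not given in the sources used here. The lowest total of a barcode was 908, 864 and 1381 UMIs. The members and gene lists were chosen with earlier results of these data known.

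Barcodes with at least 1000 UMIs, 500 genes and at most 10% mitochondrial UMIs were kept. The top 8% of doublet scores per library were left out, scored as the share of simulated doublets among 50 neighbours. Clusters came from 2000 variable genes without the 9 members, 30 principal components, 15 neighbours and Leiden clustering at resolution 1 (scanpy 1.11.5, leidenalg 0.10.2). Clusters of few UMIs, whose median was under 3 times the lowest total of the library, were set apart. Class names rest on at least 3 detected markers of 12 cell types, and may differ from the authors' own. The planned diffusion pseudotime placed elongating spermatids before late spermatocytes, so after seeing the data the path was taken from a minimum spanning tree of 1 minus the Pearson correlation of cluster profiles. For each class or stage of a library, counts were added up over cells and scaled to CPM. Intervals are exact Poisson or Clopper-Pearson 95% intervals and cover counting error only. Cells were not used as replicates. The size rule was tested on simulated data with counting error alone and with changes well beyond its limit. That test covers neither spread between mice nor changes near the limit. The genes named are the 9 members, the 2 genes most like each, members of the 3 lists that passed or were the 3 most abundant, and stage landmarks. The neighbours on chromosomes 9 and 14, Spaca1 and Ssxb1 to Ssxb3 were named after their values were seen. Positions are those of GENCODE release M21 on GRCm38, matched by Ensembl identifier, and promoters are from RefSeq on GRCm38.p6. Alternatives changed the fold, the CPM minimum, the pseudocount, the scaling, the cell filter, the doublets, the clustering, the bins and the libraries used.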

Additional observations from a re-analysis of the deposited data

How the results depend on the processing

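The count of gene and class pairs that passed the size rule, 0 of 19, was 0 at 1.5-fold, at 5 CPM, with no CPM minimum, with a pseudocount of 5 CPM, with median-of-ratios size factors, with no doublets left out, at Leiden resolution 2, with low-UMI clusters named too and with equal weight for each cluster, the last an alternative chosen after seeing the data. Leaving out 1 wildtype library, which also drops the condition on the ratio between the wildtype libraries, gave 0 to 2. The 2 were Prss51 and Prss58 in round spermatids without wildtype replicate 1. The stricter cell filter gave 1, Prss50 in early spermatocytes at 94.5, 92.9 and 190 CPM, where the class held 269, 258 and 409 cells and Prss50 was highest in spermatogonia. The cause was not tested. Within each cluster of the path, a comparison added after seeing the data, 1 passed, Prss46 in stage 7. The number of genes highest in spermatids was 5, and 5 or 6 under every alternative run, and it was 6 where Prss46 moved from late spermatocytes to round spermatids, under the stricter cell filter and with low-UMI clusters named too. Prss37 moved between round and elongating spermatids. Prss51 and Prss55 moved from elongating to round spermatids with equal weight for each cluster. The highest bins of the 3 libraries lay within 1 bin for 9 genes, for 8 with low-UMI clusters named too and for 7 along diffusion pseudotime. Along diffusion pseudotime the order of the genes did not hold, with Prss54 highest in bin 4, Prss55 and Prss58 in bin 5, Prss46 in bin 15, Tmprss12 in bin 19 and Prss21 in bin 20. All 9 genes had a higher share of cells in their highest class than in somatic cells at 5000 UMIs too. No paired analysis was possible because the knockout group is 1 pooled library and the wildtype numbers only name mice. At 2000 UMIs per cell the intervals of Tmprss12 in early spermatocytes and in somatic cells overlapped in wildtype replicate 1.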
